A study of Mus musculus with 6 samples.

Results

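The genes described are those for the enzymes that modify and crosslink collagen lysines, together with the collagen chaperone. They are the lysyl oxidases Lox, Loxl1, Loxl2, Loxl3 and Loxl4, the lysyl hydroxylases Plod1, Plod2 and Plod3, and Serpinh1. They were chosen by name, and all 9 had a row among the 19353 genes of the deposited table. The cells were purified primary mesenchymal stem cells of wild-type (WT) mouse bone marrow. The MCH group (3 libraries) was kept in osteogenic medium with 0.5 µM melanin-concentrating hormone, a hypothalamic peptide, and the Control group (3 libraries) in the same medium without it. Both media held 100 nM dexamethasone, 50 µM ascorbic acid and 10 mM β-glycerophosphate. Induction had lasted 9 days by the sample titles but 8 days by the series design. The sequenced RNA was polyadenylated, with 16521980 to 18803949 counted reads per library. MCH replicate 1 lay nearer to the Control libraries than the other MCH libraries did, at -10.9 on the first principal component beside -32.3 and -24.8, with Control at 18.9 to 25.5. Whether replicates are separate animals or separate cultures is not labelled, and p-values thus cover the spread among these libraries only, which may be technical.

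Collagen chains are modified while they fold in the endoplasmic reticulum. Lysyl hydroxylases, which need ascorbate, convert lysines to hydroxylysines, and the chaperone HSP47, the product of Serpinh1, binds the folded triple helix until it leaves for the Golgi. Outside the cell, copper-dependent lysyl oxidases turn lysines and hydroxylysines of collagen and elastin into reactive aldehydes, from which the covalent crosslinks of the matrix form. Bone collagen depends on these crosslinks for its strength.

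Of the 9 genes, 1 was lower with MCH, Loxl3, and none was higher (p under 0.05 after Benjamini-Hochberg adjustment over the 13662 genes tested, by edgeR's quasi-likelihood test). Over all genes tested, 5.40% were lower and 3.64% were higher, 9.04% in all, so 1 of 9 is near that background. DESeq2 also called 1 lower and 0 higher. Without adjustment, 5 of the 9 had p under 0.05, Loxl1 and Loxl3 lower and Loxl2, Plod1 and Plod2 higher, beside 26.8% of all genes tested. The median log2 fold change (MCH minus Control) of the 9 genes was 0.09, beside 0.00 over all genes tested, and 0.17 beside 0.04 with the trend of each library on transcript length and GC content removed. The fibrillar collagen chains, the substrates of these enzymes, had a median of -0.44 (-0.23 with that trend removed), with 6 of 9 tested chains lower. Measured against type I collagen transcripts within each library, 6 of the 9 genes stood higher in every MCH library than in any Control library, as did 65.4% of all genes tested, which is near the same share. Loxl3 stood lower, as did 2.20% of all genes tested.

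Shared sequence shows how close the lysyl oxidase paralogs are, which bears on whether reads can be told apart. For each gene the transcript with the longest coding sequence was compared over its full length, untranslated ends included, and other transcripts were not. The longest run of bases shared exactly by any pair of the 5 lysyl oxidases was 32 bases, in Lox and Loxl1. The shortest over the 10 pairs was 11. Among the 3 pairs of lysyl hydroxylases these runs were 15 to 24 bases. For read length and counting method the sources used here give nothing. The longest stretch of protein identical in all 5 lysyl oxidases was 13 residues, in the catalytic domain, and it holds the lysine from which the enzymes' quinone cofactor is built. Its 39 coding bases are shown 5′ to 3′ for 4 of the genes, with capitals at the 10 positions where these genes differ (GENCODE M21 transcripts, GRCm38).
Loxl1: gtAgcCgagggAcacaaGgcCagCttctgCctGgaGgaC
Loxl2: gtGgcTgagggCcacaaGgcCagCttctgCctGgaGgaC
Loxl3: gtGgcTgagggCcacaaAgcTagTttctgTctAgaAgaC
Loxl4: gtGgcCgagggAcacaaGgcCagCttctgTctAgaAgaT
The stretch lies within exon 4 of Loxl1 (chr9:58293627-58293665, minus strand), exon 11 of Loxl2 (chr14:69689089-69689127, plus strand), exon 11 of Loxl3 (chr6:83050177-83050215, plus strand) and exon 12 of Loxl4 (chr19:42598717-42598755, minus strand).

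The genes spanned a wide range of levels, and the order was the same in every library. Levels between genes are given as FPKM, the authors' deposited values per kilobase and per library size, with the SD over 3 libraries. Lox, the founding lysyl oxidase, was the highest, with 667 ± 61.6 FPKM with MCH and 683 ± 49.3 FPKM in Control. It ranked 78th of all genes with MCH and 71st in Control and took 0.496% and 0.511% of all counted reads. Serpinh1 followed with 302 ± 109 FPKM with MCH and 299 ± 66.1 FPKM in Control. The lysyl hydroxylases lay together below these, Plod1 at 61.1 ± 1.44 FPKM with MCH and 55.9 ± 2.24 FPKM in Control, Plod2 at 52.2 ± 1.97 and 46.8 ± 3.47 FPKM, and Plod3 at 35.6 ± 2.08 and 33.7 ± 0.190 FPKM. Loxl2 stood between Plod2 and Plod3, at 45.3 ± 1.15 FPKM with MCH and 41.4 ± 1.37 FPKM in Control. Loxl1 had 22.2 ± 0.404 FPKM with MCH and 26.6 ± 1.81 FPKM in Control. Loxl3 had 14.7 ± 1.14 FPKM with MCH and 23.0 ± 0.441 FPKM in Control. Loxl4 was the lowest, at 3.84 ± 0.874 and 3.63 ± 0.516 FPKM. Each gene lay above the next in the order in 6 of 6 libraries, with no overlap within either group. The nearest neighbours were Plod2 over Loxl2, 1.15-fold with MCH and 1.13-fold in Control.

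**Figure D1:**
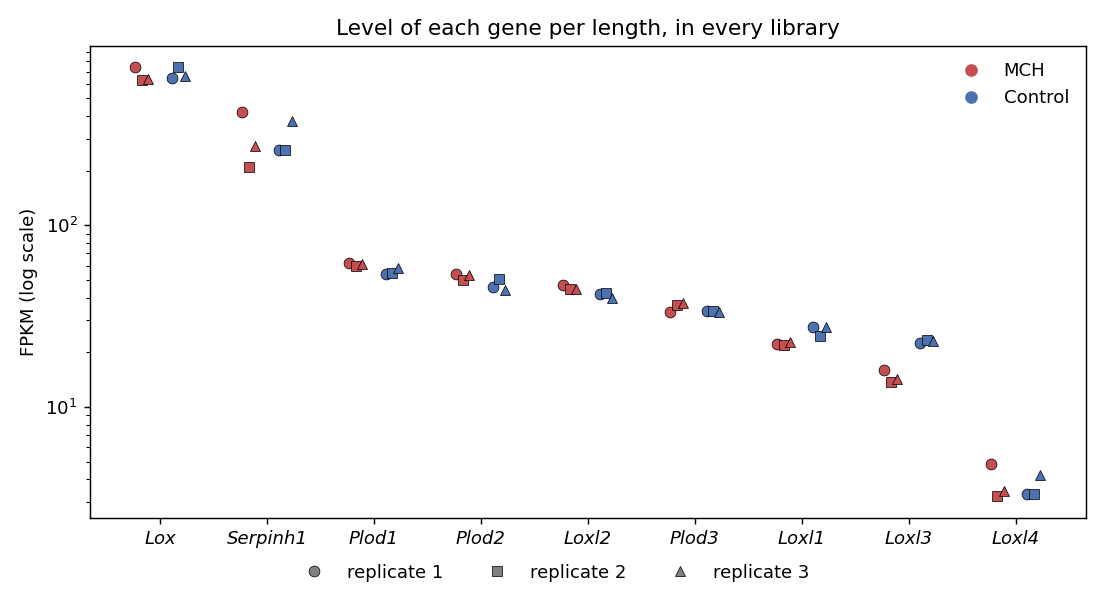
FPKM (log axis) of the 9 genes in each of the 3 MCH (red) and 3 Control (blue) libraries, ordered by mean level, with replicates as symbols. Lox lies highest at 667 FPKM with MCH and 683 FPKM in Control, Loxl4 lowest at 3.84 and 3.63 FPKM, and the groups of Loxl3 are set apart.

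The lysyl hydroxylases did not pass the threshold, and all 3 point estimates lay slightly above 0. Values between libraries are given as CPM, counts scaled to a common library total after scaling of the libraries by the TMM method. Plod1 hydroxylates lysines of the triple helix, and its loss in people gives a kyphoscoliotic form of Ehlers-Danlos syndrome. It had 495, 490.1 and 499.5 CPM with MCH, against 444, 436 and 468 CPM in Control. Its groups did not overlap, and the log2 fold change was 0.14 ± 0.06 (SE, adjusted p = 0.171), with a 95% interval from 0.01 to 0.27. Such intervals are not adjusted for the number of genes. Plod2 hydroxylates lysines in the telopeptides, the chain ends where crosslinks start, and its loss in people gives Bruck syndrome with fragile bones. It had 391, 378 and 397 CPM with MCH, against 342, 369.7 and 325 CPM in Control. These groups did not overlap in CPM either (log2 fold change 0.17 ± 0.07, adjusted p = 0.150, 95% interval 0.02 to 0.32). In FPKM they did, with MCH replicate 2 at 49.99 and Control replicate 2 at 50.72 FPKM. Plod2 is known to have splice forms with and without a telopeptide-linked exon, which counts per gene do not separate.

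Plod3 encodes an enzyme that also adds glucose to hydroxylysine-linked galactose. It had 230.4, 262 and 265 CPM with MCH, against 241, 234 and 234 CPM in Control. MCH replicate 1 lay below all 3 Control libraries and the other 2 MCH libraries above them (log2 fold change 0.09 ± 0.07, adjusted p = 0.425, 95% interval -0.06 to 0.25). The intervals of the 3 lysyl hydroxylases exclude a fall of more than 0.06 on the log2 scale and a rise of more than 0.32. Each of the 3 kept about the same part of the family total. Plod1 made up 41.0 ± 0.704% of the summed FPKM of the 3 genes with MCH and 41.0 ± 1.81% in Control, Plod2 35.1 ± 0.842% and 34.3 ± 1.97%, and Plod3 23.9 ± 1.44% and 24.7 ± 0.526% (SD, n = 3 each). These shares overlapped between the groups (exact two-sided permutation p = 0.50 to 1.00, where 3 libraries against 3 cannot go below 0.10). Overlapping neighbours limit the counts: Plod3 shares 1003 bases with Znhit1 on the opposite strand, which had 695 to 1072 counts per library, and Plod2 shares 647 bases with Gm38391, which had 24 to 63.

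Serpinh1 varied more between replicates than between groups. It had 1084, 559 and 724 CPM with MCH, against 691, 670.4 and 973 CPM in Control. MCH replicate 1 and Control replicate 3 were high and MCH replicate 2 was the lowest, so that the highest library stood 1.94-fold above the lowest. The log2 fold change was 0.02 ± 0.29 (adjusted p = 0.974), and the 95% interval from -0.72 to 0.76 leaves room for a change of over 1.5-fold either way. Without MCH replicate 1 the log2 fold change was -0.28 (adjusted p = 0.481). The SD within groups was 0.400 on the log2 CPM scale, against a median of 0.0895 over the 2014 genes of at least 100 CPM, of which 56 had a larger one. The other 8 members had an SD of 0.0377 to 0.238.

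HSP47 is a heat shock protein, so the heat shock genes were set beside Serpinh1. Of the 9 tested, Hspd1, the mitochondrial chaperone HSP60, rose to 99.9 FPKM with MCH, against 75.3 FPKM in Control (log2 fold change 0.42 ± 0.05, adjusted p = 0.00422). Bag3, a partner of the heat shock protein HSP70, fell to 29.7 FPKM with MCH, against 37.2 FPKM in Control (log2 fold change -0.32 ± 0.06, adjusted p = 0.0163), but passed in only 2 of the 6 refits that omitted a library (highest adjusted p = 0.0804). The median of the list was 0.09, with 3 of the 9 below 0. Hspe1 (0.51 ± 0.14, adjusted p = 0.0636), Hsph1 (0.34 ± 0.10, adjusted p = 0.0737) and Hsp90aa1 (0.19 ± 0.07, adjusted p = 0.114) lay higher without passing. Groups did not overlap for 6 of the 9, beside 32.8% of all genes tested. Without adjustment 5 of the 9 had p under 0.05, beside 26.8%, and DESeq2 called 4, beside 11.4%. Of the 9 genes, 3 (Hspa1a, Hspa1b and Hsp90aa1) were highest in the same MCH library and the same Control library as Serpinh1, as were 13.8% of all genes tested. Hspa1b, an inducible HSP70 gene, had 15.89 to 17.95 CPM with MCH, against 16.41 to 23.62 CPM in Control, and Hspa1a, its near-identical neighbour, had 3.40, 2.09 and 2.73 CPM with MCH, against 3.63, 3.19 and 4.12 CPM in Control. The MCH libraries stood in the same order for Hspa1a as for Serpinh1 and in another for Hspa1b. Reads of these 2 genes may not be told apart. The part of a stress response in the Serpinh1 values was not tested.

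Among the lysyl oxidases, Loxl3 was lower with MCH in every library. In mice the Loxl3 enzyme is needed for the palate and the spine. Loxl3 (chr6:83034173-83052562, plus strand, GRCm38) had 86.8, 77.7 and 80.1 CPM with MCH, against 126, 127 and 127 CPM in Control. The lowest Control library thus stood well above the highest MCH library, and Control libraries were almost equal. With means of 81.5 ± 4.71 CPM with MCH and 127 ± 0.424 CPM in Control, it fell by 35.7% (log2 fold change -0.64 ± 0.06, adjusted p = 0.00182, 95% interval -0.78 to -0.49). The call was kept in 6 of 6 refits that omitted a library (log2 fold change -0.69 to -0.60, highest adjusted p = 0.0152). In the authors' deposited table the q-value of Loxl3 was 0.00125, and those of the other 8 genes ran from 0.5775 to 1.0. Loxl3 shares 1297 bases at its end with Htra2 on the opposite strand, and the sources used here do not say whether counting used strand. Htra2 had 60.5, 78.4 and 58.7 CPM with MCH, against 56.7, 55.2 and 59.8 CPM in Control, and did not pass (log2 fold change 0.20 ± 0.12, adjusted p = 0.311). In bulk samples, fewer cells of a type and less RNA per cell cannot be told apart.

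Lox itself did not differ beyond the spread of the libraries. It had 5410.3, 4780 and 4786 CPM with MCH, against 4880, 5419 and 4934 CPM in Control. The groups interleaved, with MCH replicate 1 close to the highest Control library (log2 fold change -0.02 ± 0.09, adjusted p = 0.883). The 95% interval from -0.22 to 0.17 excludes a change of Lox as large as that of Loxl3. Loxl1, whose product is needed for elastic fibres, had 72.9, 74.4 and 76.4 CPM with MCH, against 93.9, 80.4 and 91.1 CPM in Control. All MCH libraries lay below all Control libraries, but the difference did not pass (log2 fold change -0.25 ± 0.08, adjusted p = 0.0842). Loxl2, which also acts on collagen IV of basement membranes, had 278, 278 and 273 CPM with MCH, against 256, 254 and 240.2 CPM in Control. Here the groups were apart in the other direction, again without passing (log2 fold change 0.14 ± 0.05, adjusted p = 0.145).

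Loxl4 was the least abundant, with 435, 313 and 323 counts with MCH, against 295, 337 and 388 counts in Control. MCH replicate 1 stood highest and the groups overlapped (log2 fold change 0.09 ± 0.16, adjusted p = 0.778). In all, 5 of the 9 genes had groups that did not overlap in CPM, beside 32.8% of all genes tested. With the length and GC trend removed, Loxl2 (log2 fold change 0.29, adjusted p = 0.0257) and Plod1 (0.25, adjusted p = 0.0153) passed as higher. Over all 13662 genes tested, 1025 passed as higher in that fit, against 497 in the main fit. Loxl3 kept its call (-0.52, adjusted p = 0.00117) and Loxl1 moved to -0.13. Plod3 moved to 0.20 in that fit and Loxl4 to 0.21, neither past the threshold.

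**Figure D2:**
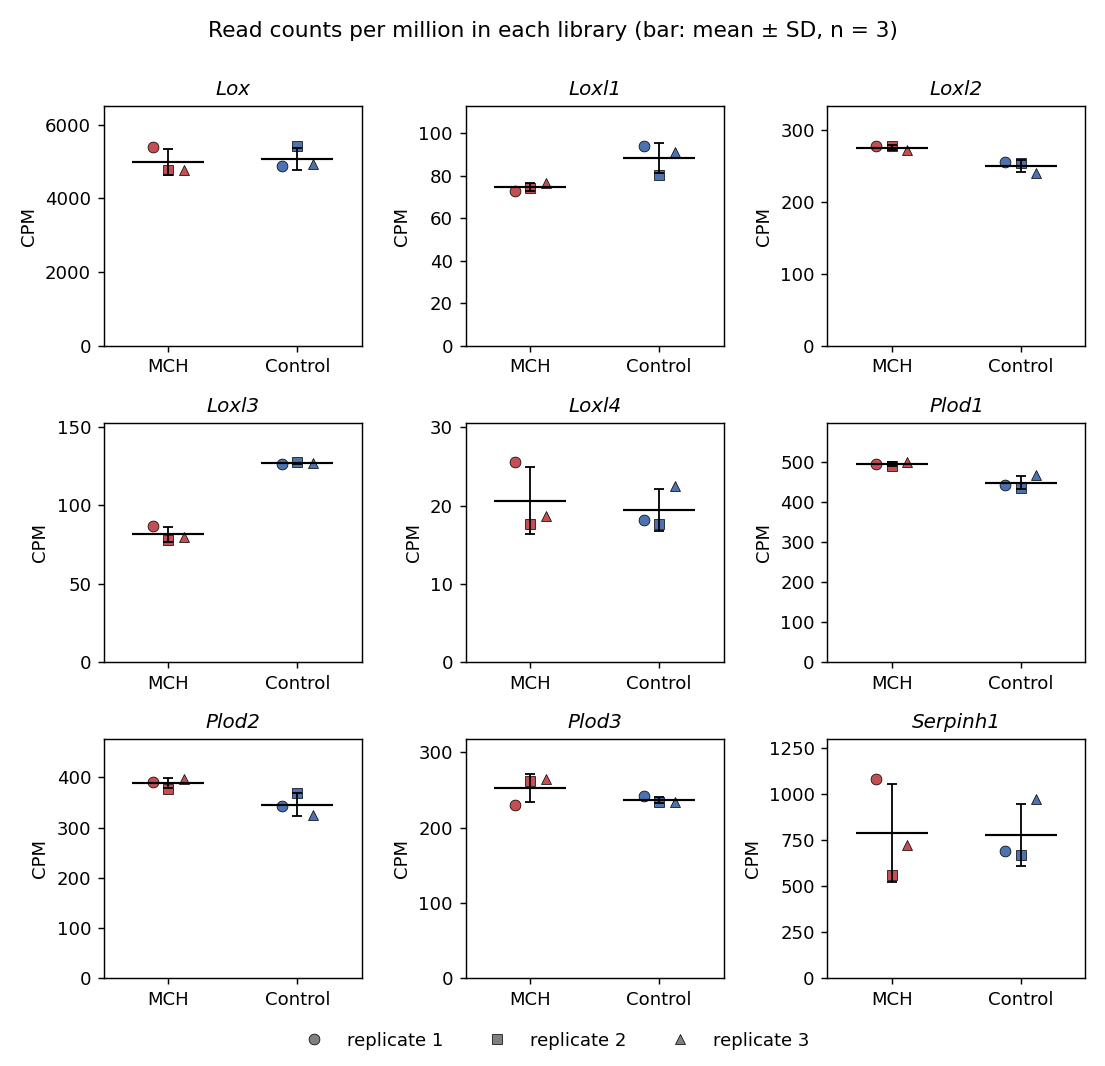
CPM of each gene (axes from 0) in the 3 MCH (red) and 3 Control (blue) libraries, with replicates as symbols and bars for the mean ± SD. Loxl3 lies at 77.7 to 86.8 CPM with MCH and at 126 to 127 CPM in Control, and Serpinh1 spreads over 559 to 1084 CPM with MCH.

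The make-up of the lysyl oxidase family moved by about 1 percentage point. Loxl3 made up 1.93, 1.93 and 1.99% of the summed FPKM of the 5 genes with MCH, against 3.04, 2.81 and 3.03% in Control, a difference of -1.01 percentage points. Loxl2 made up 5.634, 6.30 and 6.18% with MCH, against 5.629, 5.12 and 5.24% in Control, a difference of 0.709 percentage points. For Loxl2 the lowest MCH library and the highest Control library lay next to each other, and for Loxl3 the groups were well apart. Both reached the smallest p the design allows (exact two-sided permutation p = 0.10, adjusted p = 0.40 over the 8 shares of both families). Computed from counts in place of FPKM, the Loxl2 shares overlapped. Lox made up 88.5 ± 0.547% with MCH and 87.8 ± 0.829% in Control, and its share, like those of Loxl1 and Loxl4, overlapped between the groups.

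Of the 9 tested fibrillar chains, the substrates of these enzymes, 6 were lower with MCH, beside 5.40% of all genes tested. Col1a1, the main chain of type I collagen, had 4025, 3632 and 3783 CPM with MCH, against 5001, 4945 and 5569 CPM in Control (log2 fold change -0.44 ± 0.08, adjusted p = 0.0197). This call was kept in 2 of the 6 refits that omitted a library (highest adjusted p = 0.0976) and when the trend on length and GC was removed (-0.23, adjusted p = 0.0199). Its partner chain Col1a2 fell by 0.52 ± 0.08 (adjusted p = 0.00807), a call lost without MCH replicate 3 (adjusted p = 0.0560) and moved to -0.34 with that trend removed. Col3a1 fell by 0.99 ± 0.08 (adjusted p = 0.000741). The type V chains, which set fibril width, also fell, Col5a1 by 0.50 ± 0.08, Col5a2 by 0.29 ± 0.07 and Col5a3 by 0.48 ± 0.07 (adjusted p = 0.0108, 0.0453 and 0.00666). The Col5a2 call was kept in 1 of the 6 refits that omitted a library and that of Col5a1 in 5. Col11a1 (-0.37 ± 0.33), Col11a2 (0.14 ± 0.20) and Col27a1 (-0.01 ± 0.09) did not pass, and Col2a1 and Col24a1 were too low to test.

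To set enzyme against substrate independently of library scaling, the log2 ratio of each gene to type I collagen (the mean log2 CPM of Col1a1 and Col1a2) was taken in each library. For Plod1 it was -3.08, -2.94 and -2.98 with MCH, against -3.59, -3.63 and -3.64 in Control, a difference of 0.62. For Plod2 it was -3.42, -3.32 and -3.31 with MCH, against -3.97, -3.87 and -4.17 in Control, a difference of 0.65. Neither overlapped, and the gap between the groups was larger than the range within them. For Lox it was 0.37, 0.34 and 0.28 with MCH, against -0.13, 0.00 and -0.24 in Control, a difference of 0.45. Lox reads thus lay above the log2 mean of the type I chains in every MCH library, and about level with it in Control replicate 2 (0.004). Loxl2 (difference 0.62), Loxl4 (0.56) and Plod3 (0.57) were also higher in every MCH library than in any Control library. Serpinh1 (0.47) and Loxl1 (0.24) overlapped. Loxl3 was the exception in direction, at -5.59, -5.60 and -5.62 with MCH, against -5.40, -5.41 and -5.52 in Control, a difference of -0.16.

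In all, the groups were apart for 7 of the 9 genes, beside 67.6% of all genes tested. For these 7 genes the exact two-sided permutation p was 0.10, the smallest possible with 3 libraries against 3 (adjusted p = 0.13 over the 9 ratios), so the design cannot bring them past 0.05. The ratios share the same collagen values and are thus not independent of each other. The median difference of this ratio was 0.56 over the 9 members, against 0.48 over the 13631 tested genes with a count in every library. The difference of Loxl3 ran the other way because Loxl3 itself was lower by more than the type I chains. With Col3a1 as the denominator all 9 genes were apart and higher, as Col3a1 was lower by more than any of them. The differences were 0.35 for Loxl3, 0.75 for Loxl1, 0.97 for Lox, 0.98 for Serpinh1 and 1.07 to 1.16 for the other 5. The share of all genes tested that stood apart over Col3a1 was not computed, so this count cannot be read as particular to the members. From the fit with the length and GC trend removed, an alternative added after seeing the data, the differences were 0.31 for Lox, 0.54 for Plod1, 0.455 for Plod2 and -0.24 for Loxl3.

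**Figure D3:**
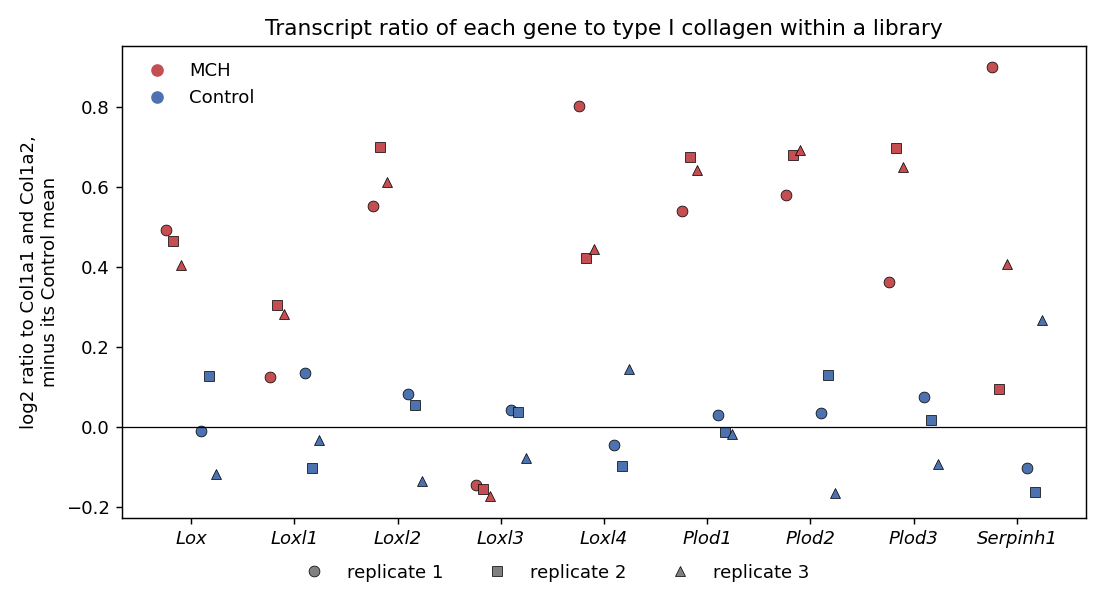
Log2 ratio of each gene to the mean of Col1a1 and Col1a2 in each library, drawn relative to the Control mean of that gene, for 3 MCH (red) and 3 Control (blue) libraries. All genes but Loxl3 have a higher mean with MCH, by 0.24 for Loxl1 up to 0.65 for Plod2, and Loxl3 lies 0.16 lower.

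The partner enzymes of the endoplasmic reticulum gave 1 gene that rose and 1 that fell. Of 14 tested genes of proline hydroxylation, collagen glycosylation and folding, 12 did not pass, 9 had a log2 fold change above 0, and the median was 0.11. Over all genes tested, 9.04% passed. Groups did not overlap for 7 of the 14, beside 32.8% of all genes tested. Without adjustment 6 of the 14 had p under 0.05, beside 26.8%, and DESeq2 called 4, beside 11.4%. Crtap, which encodes a subunit of the prolyl 3-hydroxylase complex, rose to 245, 282 and 273 CPM with MCH, against 179, 157 and 173 CPM in Control (log2 fold change 0.65 ± 0.08, adjusted p = 0.00364, kept in 6 of 6 refits that omitted a library). Its 2 partners in that complex did not pass, P3h1 with a log2 fold change of -0.23 ± 0.19 and the cyclophilin gene Ppib with 0.20 ± 0.11. P4ha3, a catalytic subunit of prolyl 4-hydroxylase, fell to 27.3 ± 2.93 CPM with MCH, against 42.8 ± 2.07 CPM in Control (log2 fold change -0.65 ± 0.10, adjusted p = 0.00954, kept in 6 of 6 fits). The other catalytic subunits lay higher without passing, P4ha1 by 0.16 ± 0.06 (adjusted p = 0.126) and P4ha2 by 0.19 ± 0.06 (adjusted p = 0.0897). The common subunit P4hb, protein disulfide isomerase, was at 1042 FPKM with MCH and 901 FPKM in Control (log2 fold change 0.22 ± 0.07, adjusted p = 0.0875). Fkbp10, a folding enzyme that works with the lysyl hydroxylase of telopeptides, had a log2 fold change of 0.10 ± 0.06 (adjusted p = 0.345).

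**Figure D4:**
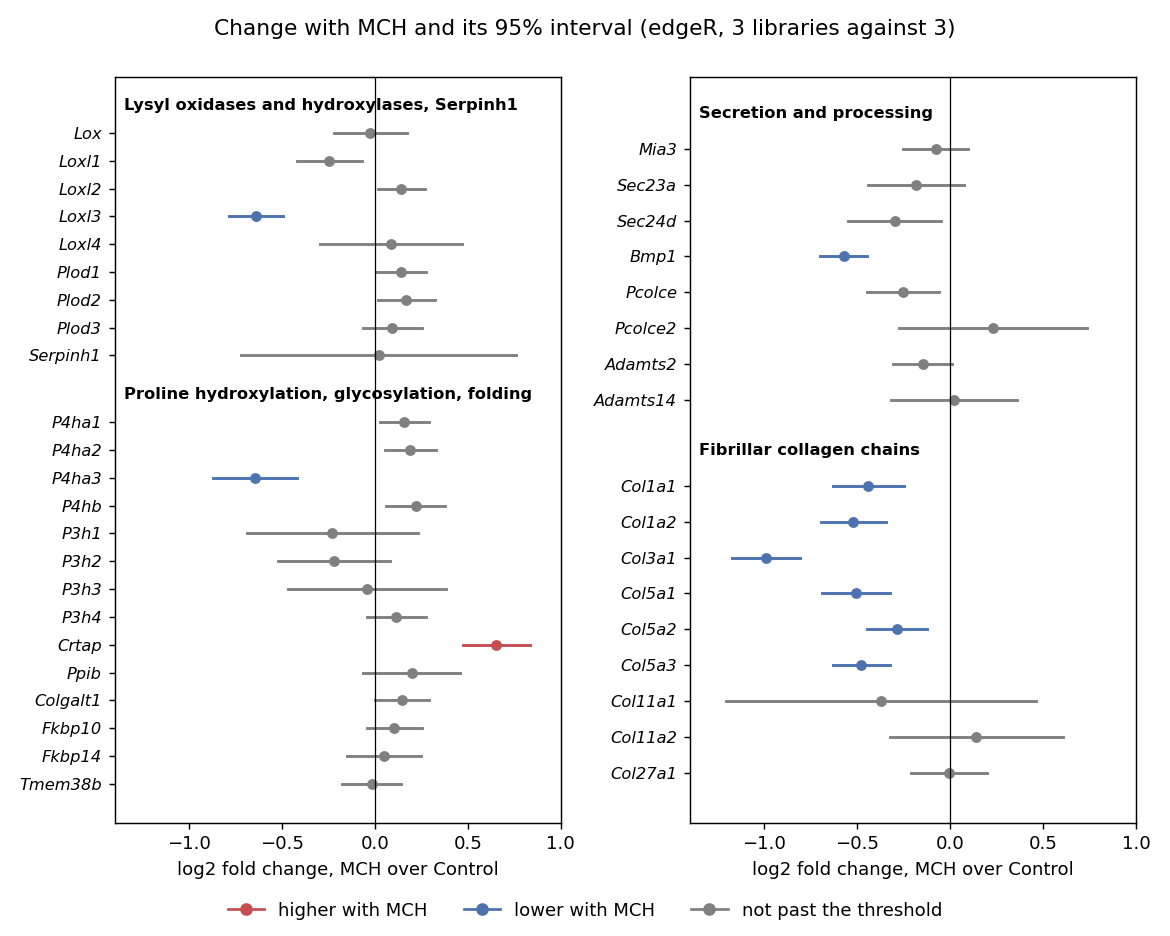
Log2 fold change of MCH over Control (points) with 95% intervals (bars) for the 9 genes, their partners in the endoplasmic reticulum, in secretion and processing, and the fibrillar collagen chains. Blue marks genes lower with MCH, red genes higher and grey those not past the threshold, with Loxl3 at -0.64, Crtap at 0.65 and Col3a1 at -0.99, while Adamts3 at -1.79 lies outside the axis and is not drawn.

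Outside the cell, the protease that activates Lox was lower. Bmp1, which removes the propeptides of procollagen and of the Lox proenzyme, had 242, 242 and 240.1 CPM with MCH, against 352, 351 and 375 CPM in Control. The groups were far apart relative to their spread (log2 fold change -0.57 ± 0.05, adjusted p = 0.00166, kept in 6 of 6 refits that omitted a library). The related proteases Tll1 and Tll2 were too low to test. Pcolce, an enhancer of that cleavage, had a log2 fold change of -0.26 ± 0.08 (adjusted p = 0.10). Of 9 tested genes of secretion and processing, 2 were lower (median -0.18), beside 5.40% of all genes tested. The other was Adamts3, an N-propeptidase at about 1 CPM, whose call was kept in 0 of the 6 refits that omitted a library (highest adjusted p = 0.114).

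Fn1, the fibronectin scaffold on which collagen and Lox assemble, fell by 0.43 ± 0.09 (adjusted p = 0.0318, kept in 2 of 6 refits that omitted a library). Fmod, a proteoglycan that binds collagen and Lox, fell to 3.64 ± 0.412 CPM with MCH, against 8.49 ± 0.543 CPM in Control (log2 fold change -1.22 ± 0.15, adjusted p = 0.00380). Postn had the largest change of this list but did not pass (-2.10 ± 0.55, adjusted p = 0.0532). Its counts were few, 6, 6 and 11 with MCH, against 12, 54 and 37 in Control. Thbs1 did not pass either (-0.24 ± 0.11, adjusted p = 0.201). Of the elastin partners, Efemp2 did not pass (-0.05 ± 0.06) and Fbln5 did not either (0.33 ± 0.10, adjusted p = 0.0860), and elastin itself (Eln) was too low to test. Of 6 tested genes of this list 2 were lower (median -0.34, and -0.16 with the length and GC trend removed), beside 5.40% of all genes tested. None of 4 genes of copper and ascorbate supply passed (median -0.12), among them the copper transporter gene Slc31a1 (-0.14 ± 0.24) and the ascorbate transporter gene Slc23a2 (-0.11 ± 0.09). Without adjustment also 0 of the 4 had p under 0.05, beside 26.8% of all genes tested, and DESeq2 called 0, beside 11.4%. Of 4 other crosslinking enzymes, the factor XIII gene F13a1 was lower, on few counts, and Tgm2, the tissue transglutaminase, was not called (-0.16 ± 0.07, adjusted p = 0.182). F13a1 kept its call in 1 of the 6 refits that omitted a library.

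Low oxygen is known to raise Lox, Loxl2, Plod1, Plod2 and P4ha1, so the genes of that response were listed beside them. Of 12, none passed (edgeR quasi-likelihood test, median 0.03). Without adjustment 3 of the 12 had p under 0.05, beside 26.8% of all genes tested, and DESeq2 called 0 of them, beside 11.4% of all genes tested. Groups did not overlap for 6 of the 12, beside 32.8% of all genes tested. Vegfa, the angiogenic factor, stood at 43.6 FPKM with MCH and 50.8 FPKM in Control, and Ldha, a glycolytic enzyme, at 953 and 855 FPKM. The part of low oxygen in the values above was not tested.

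The markers of the labelled cells were present in part. Pdgfra, Pdgfrb, Runx2, Alpl and Cd44 had 243 to 3567 counts per library, while Sp7 and Bglap, which mark osteoblasts, had 0 to 4. The stromal markers Thy1, Nt5e and Eng were low, at 36 to 59, 81 to 179 and 150 to 200 counts. Of the 11 stromal and osteogenic markers, 5 of 9 tested were lower with MCH, beside 5.40% of all genes tested. These were Pdgfra, Pdgfrb, Nt5e, Alpl and Col1a1. The Nt5e call was kept in 1 of the 6 refits that omitted a library and that of Col1a1 in 2. Pdgfra, Pdgfrb and Alpl kept their calls in 6 of 6. Summed over the list, MCH libraries had 70614 to 75505 counts, against 90212 to 105986 for Control libraries. Ptprc, the leukocyte gene, had 0 to 2 counts. The summed counts of the 9 macrophage genes were 810 to 1389 with MCH and 654 to 787 in Control, highest in MCH replicate 3, where Adgre1 had 50 counts against 0 to 11 elsewhere. Cd68 gave most of them, 690 to 934 with MCH and 549 to 606 in Control. The granulocyte list summed to 278 to 462 and 459 to 491 counts, the endothelial list to 44 to 85 and 52 to 75, and the lymphocyte list to 149 to 177 and 65 to 88, of which Cd3e gave 125 to 153 and 39 to 61 and passed as higher (log2 fold change 1.46, adjusted p = 0.00346). The smooth muscle list summed to 28756 to 33161 with MCH and 25243 to 26920 in Control, mostly from Acta2 (Tagln was higher with MCH), while Myh11 had 3 to 12 counts. The adipocyte list summed to 1830 to 2281 and 1930 to 2273 counts, with Adipoq at 0 to 3. In that list Lpl passed as higher (log2 fold change 0.43, adjusted p = 0.0344) and Fabp4 did not pass (-0.35, adjusted p = 0.112). Without MCH replicate 3 the log2 fold change of Loxl3 was -0.62. The part of these cell types in the values above was not tested.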

How the data were processed

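RNA-seq of 3 MCH and 3 Control libraries was deposited as 1 table of genes with raw counts and FPKM, per the file headers. The submitters' processing notes name GRCm38 (mm10). For the aligner, the counter, its strand setting and the authors' test behind the deposited p-values and q-values, the sources used here give nothing. Columns with MCH in their name were taken as MCH. The remaining 3 carry no group name and were assigned to Control, the only other group, and every direction depends on that assignment. Of 19353 gene IDs, 99.5% were in GENCODE M21.

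The deposited counts entered edgeR 4.0.16 (R 4.3.3) with TMM scaling, filterByExpr (minimum count 10, minimum total 15), a robust quasi-likelihood fit on group, Benjamini-Hochberg adjustment over the 13662 genes kept, which include all 9 members. SE is the unshrunken coefficient over the square root of F. The steps were tested on simulated counts. Ratios and shares were tested by exact permutation. Named genes were all members, the collagen chains and elastic or scaffold partners, up to 4 of each other list with the smallest p, and the defining or most abundant markers. P4ha1, P3h1, Ppib, Fkbp10, Tll1, Tll2, Hspa1a, Hspa1b and Hsp90aa1 fall outside this rule and were named after their values were seen. Members and lists were chosen with earlier results of these data known. Alternatives used DESeq2 1.42.0, limma 3.58.1 and other settings given at the end. Colgalt2, Slc23a1, Mpo, Emcn and Ms4a1 were listed but not analysed here. Library totals were 16521980 to 18803949 counts.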

Additional observations from a re-analysis of the deposited data

How the results depend on the processing

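Loxl3 kept its direction and call under all 16 alternatives run for it (log2 fold change -0.69 to -0.52), and the count of members lower stayed at 1. Members higher numbered 0, and 2 with the length and GC trend removed. Pathway genes lower numbered 13, and 3 with the replicate number as a block. Pathway genes higher numbered 2, and 6 with DESeq2, 1 with the replicate block and 8 with the length and GC trend removed. Over all genes, 738 lower became 151 and 497 higher became 28 with the replicate block, and 497 became 1025 with the trend removed. With 1 library left out the ranges were 5 to 14 and 2 to 3 for pathway genes lower and higher, 256 to 867 and 65 to 722 for all genes, 7 to 8 for members whose collagen ratio was apart (7), and 2 to 5 for paralog shares apart (2, and 1 from counts). The lowest counts came without MCH replicate 3. When Control replicate 2, Control replicate 3 or MCH replicate 2 was omitted, pathway genes lower numbered 7, all genes lower 306 to 342 and all genes higher 106 to 116, and without Control replicate 1 all genes higher numbered 285. Paralog shares apart numbered 5 without Control replicate 2.

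Direction turned for genes near 0. Lox (-0.02) was 0.0272 with the trend removed and -0.0868 to 0.0248 with 1 library left out, above 0 without MCH replicate 2, MCH replicate 3 or Control replicate 2. Loxl4 (0.09) was -0.0944 to 0.209, below 0 without MCH replicate 1. Serpinh1 (0.02) was -0.0128 with limma-voom, -0.0233 with limma on log2(FPKM + 1), -0.0155 with the replicate block and -0.279 to 0.217 with 1 library left out, below 0 without MCH replicate 1 or Control replicate 1 or 2. The Loxl3 ratio (-0.16) was 0.35 over Col3a1, as Col3a1 was lower by more than Loxl3 (log2 fold change -0.99 against -0.64). The cause of the other turns was not tested. Replicate numbers did not pair the libraries (correlation of deviations -0.16, -0.04 and -0.01), and 0 of 6 libraries correlated best with their own number.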
